A study of Mus musculus with 6 samples.

Results

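Meningeal fibroblasts in whose nuclei no Slc47a1 transcript was captured were described from single-nucleus RNA sequencing of the neonatal mouse brain. They were chosen from the raw counts of unique molecular identifiers (UMIs, each standing for 1 captured transcript). A nucleus was taken if it had at least 4 UMIs of Bnc2, Slc6a13 and Col1a2 together, at least 2 of Lama1, Col4a6 and Bmp6 together, none of Slc47a1, and at most 1 UMI each of the pericyte pair Abcc9 and Atp13a5, of endothelial Flt1 and of Tnr, a gene of the oligodendrocyte lineage. Of 63383 barcodes, 60724 had at least 300 genes and at most 1% mitochondrial UMIs (kept nuclei), and 1673 of these, or 2.76%, met the rule. The brains came from C57BL/6 S-56 mice that had received 5 µl of lysophosphatidic acid (18:1 LPA), or of its vehicle, 0.01% bovine serum albumin, into the right lateral ventricle at postnatal day 7. LPA is a bioactive lipid of blood, and the injection models hydrocephalus after a hemorrhage. Brains without olfactory bulbs and cerebellum were taken at day 15, and nuclei negative for the neuronal protein NeuN were sorted. Each of the 3 LPA and 3 vehicle libraries is labelled as a separate replicate, numbered 1 to 3.

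The meninges wrap the brain in layers called pia, arachnoid and dura. Their fibroblasts build the basement membrane on which the glia limitans rests, make retinoic acid and bone morphogenetic proteins for the tissue beneath, and carry transporters that exchange solutes between cerebrospinal fluid and tissue. Pial and inner arachnoid fibroblasts are known for laminins and type IV collagens, while Slc47a1, a transporter of organic cations, marks cells of the arachnoid border. Cerebrospinal fluid flows between these layers.

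The nuclei numbered 141, 184 and 159 in LPA 1, 2 and 3, and 301, 448 and 440 in vehicle 1, 2 and 3. Their summed depth ran from 631944 UMIs in LPA 1 to 1700878 in vehicle 2. The median nucleus held 3633, 3032 and 3210 UMIs in the LPA libraries and 3054, 2873 and 2575.5 in the vehicle libraries, so the groups overlapped in depth (exact permutation test, two-sided, p = 0.2, n = 3 and 3). With 3 libraries against 3 the smallest p this test can give is 0.1. No barcode of these nuclei was shared between libraries. Levels are given as UMIs per 1000000 UMIs of the same nuclei (CPM). At the edge of the rule, 8 meningeal genes that it did not use (Cped1, Ranbp3l, Slc6a20a, Eya2, Aox3, Dcn, Col3a1 and Bicc1) summed to 6742 CPM in the 328 nuclei with a first sum of 4 and to 6828 CPM in the 325 nuclei with a sum of 3, but to 3485 CPM in the 66 nuclei with a single Slc47a1 UMI against 7023 CPM in the members. They summed to 4435 CPM just inside the second sum (2 UMIs) and 4242 CPM just outside it (1 UMI). For the other limits, nuclei inside with 1 UMI and outside with 2 UMIs held 6203 and 7110 CPM for the pericyte pair, 7253 and 8343 CPM for Flt1, and 6403 and 4651 CPM for Tnr, so that some excluded nuclei held as much of these genes as the members.

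The label held for most of these nuclei but not for all. Aox3, an aldehyde oxidase gene that the rule did not use, had a UMI in 54.5% of them. It had a UMI in 7.03% of nuclei that met the rule but for 1 or more Slc47a1 UMIs (740, called Slc47a1 nuclei here). In 13401 oligodendrocyte-gate nuclei, which were deeper (medians of 4671 to 6838 UMIs per library), 0.963% had an Aox3 UMI. The 10 listed fibroblast markers, 1 of which, Col1a2, was in the rule, summed to 7915 ± 550 CPM in LPA and 7034 ± 264 CPM in vehicle (SD, n = 3 each) against 569 CPM in nuclei outside the gate. Clustering the 1673 nuclei gave 10 clusters, and 4 of them carried genes of other cell classes beside the fibroblast genes: cluster 6 those of astrocytes (Slc1a2, the glutamate transporter, at 5142 CPM against 554 in the other nuclei), cluster 7 those of oligodendrocytes (Mbp, myelin basic protein, at 7164 against 488), cluster 8 those of neurons and choroid plexus (Htr2c, a serotonin receptor, at 784 against 33) and cluster 9 those of immune cells (Csf1r, the CSF1 receptor, at 606 against 10). These mixed clusters held 349 nuclei, or 20.9%, with a median of 6497 UMIs against 2646 in the other 1324. A median above that of all members was part of the definition of a mixed cluster, so this gap in depth was built in. Doublets and free RNA were not told apart for these clusters, so the share and the calls are also given without them, as an alternative chosen after seeing the data. By the planned count, 3 or more UMIs of another class, 1635 of the 1673 nuclei were mixed. With Pdgfra, Cldn11, Trpm3 and Enpp2 left out of the lists, 1433 were.

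The nuclei were set beside Slc47a1 nuclei and pericyte-gate nuclei at single genes. As the rule built this contrast, the levels are a description with no test. Lama1, a laminin chain, ran from 463 to 766 CPM over the 6 libraries and averaged 22.8 CPM in Slc47a1 nuclei and 33.2 CPM in 1124 pericyte-gate nuclei. Bmp6, a bone morphogenetic protein, averaged 2115 CPM against 941 in Slc47a1 nuclei and 19.6 in pericyte-gate nuclei. Slc6a13, a GABA and taurine transporter, averaged 889 CPM against 22.0 and 18.1. Among genes outside the rule, Aldh1a2, the enzyme that makes retinoic acid, averaged 329 CPM against 12.4 in Slc47a1 nuclei and 1.44 in pericyte-gate nuclei, and Slc7a11, the cystine and glutamate exchanger, 1971 CPM against 128 and 106. Lamc3, a laminin chain, did not separate them from pericytes (286 CPM against 238) but did from Slc47a1 nuclei (7.58 CPM). Genes high in Slc47a1 nuclei were low here: Slc4a10, a bicarbonate transporter, averaged 135 CPM against 3111, Rspo3, a Wnt enhancer, 20.6 against 413, and Bnc2, a zinc finger factor of the rule itself, 617 against 4083. Levels are of UMIs at the 3′ end and are compared within a gene, not between genes.

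**Figure D1:**
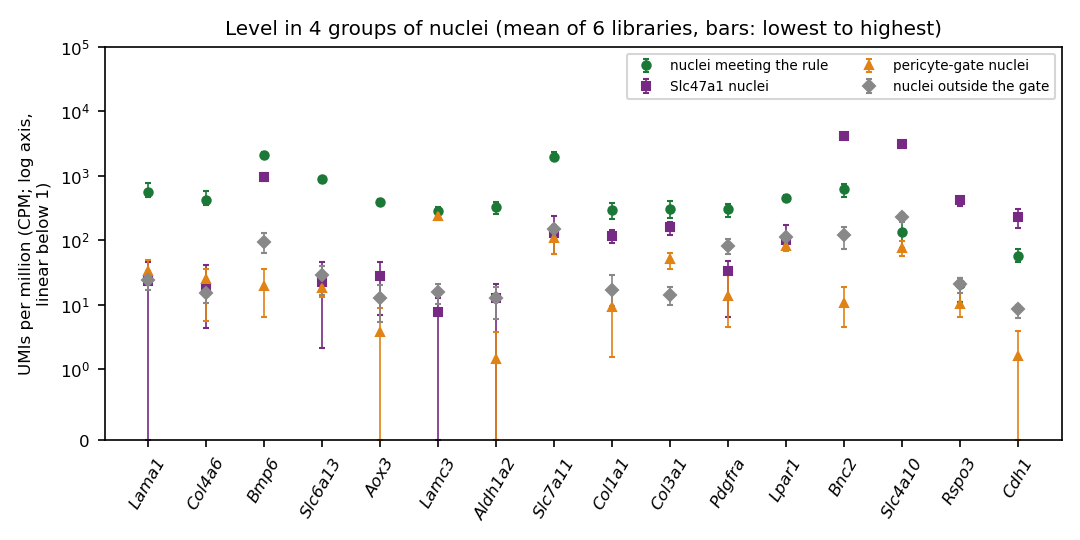
Mean CPM over 6 libraries (log axis, linear below 1) of 16 genes in nuclei meeting the rule, Slc47a1 nuclei, pericyte-gate nuclei and nuclei outside the gate; bars run from the lowest to the highest library. Lama1, Slc6a13 and Aldh1a2 are high in nuclei meeting the rule (329 CPM and above), whereas Bnc2, Slc4a10 and Rspo3 are highest in Slc47a1 nuclei.

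Among themselves the nuclei fell into 6 further clusters, each found in all 6 libraries. The genes that differed by treatment at an unadjusted p under 0.05 were left out of the clustering, as were the rule genes. Cluster 1, the largest with 515 nuclei, was led by Tbx3os1, Ndnf, Tmem132c and Apcdd1, and held the highest Slc7a11 (4592 CPM) and Aox3 (914 CPM). Cluster 2 (151 nuclei) was led, among genes with a name, by Ccbe1, Rcan2, Igf1 and Ebf1. Cluster 3 (160 nuclei) was led by Enpp1, Itga8, Fbln2 and Ebf2. Enpp1 stood at 797 CPM there against 141 CPM in the other members, and Eln, elastin (708 against 148), and Col15a1 (373 against 68.1) were also among its 10 leading genes. It also held the highest Lama1 (1627 CPM) and Col1a1 (759 CPM). Cluster 5 (254 nuclei) was led by Slc22a2, Npr3, Smoc1 and Arhgap24, and held the highest Cyp26b1, an enzyme that breaks retinoic acid down (112 CPM, against 100 CPM in cluster 2 and 20.2 CPM in cluster 1). Cluster 10 (118 nuclei) was led by Rspo2, Pkhd1, Cftr and Nnat, with Ptgds, prostaglandin D synthase, at 12078 CPM. Cluster 4 (126 nuclei) went against the label: led, among genes with a name, by Dpp4 (1495 CPM), Col25a1, Fn1 and Cdh1, the epithelial cadherin (606 CPM), it carried 2481 CPM of the fibroblast markers where clusters 1, 2, 3, 5 and 10 carried 8977 to 10372, 3106 CPM of the astrocyte markers where those 5 clusters carried 723 to 904, Lama1 at 27.2 CPM, and Bnc2 at 4108 CPM, close to the level in Slc47a1 nuclei. Slc47a1 nuclei held 3139 CPM of the astrocyte markers, near the sum in cluster 4. No Slc47a1 UMI was captured in the nuclei of cluster 4, which does not show that the transcript was absent. No layer name was given to any cluster.

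The share of these nuclei among kept nuclei was lower after LPA. It was 1.65%, 1.79% and 1.75% in LPA 1, 2 and 3, and 3.72%, 3.61% and 3.57% in vehicle 1, 2 and 3. The LPA libraries all lay below the vehicle libraries, with means of 1.73% ± 0.0705 and 3.63% ± 0.0743 (SD, n = 3 each), a ratio of 0.477 (exact permutation test, two-sided, p = 0.1, the smallest possible here). Without the mixed clusters the shares were 1.38% ± 0.103 and 2.86% ± 0.0758, a ratio of 0.484. Slc47a1 nuclei were also at a lower share (0.772% ± 0.182 against 1.59% ± 0.0508, exact p = 0.1), whereas the pericyte-gate shares overlapped (1.70% ± 0.207 against 1.94% ± 0.364, exact p = 0.4). Within the meningeal gate, 74.2%, 68.9% and 65.2% of the nuclei of LPA 1, 2 and 3 were without Slc47a1, against 70.0%, 68.7% and 69.8% in vehicle. The LPA values spread around the vehicle values, with a difference in means of -0.0883 percentage points (exact p = 1). As shares are relative to the other nuclei sorted, fewer meningeal nuclei and more of other nuclei cannot be told apart.

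**Figure D2:**
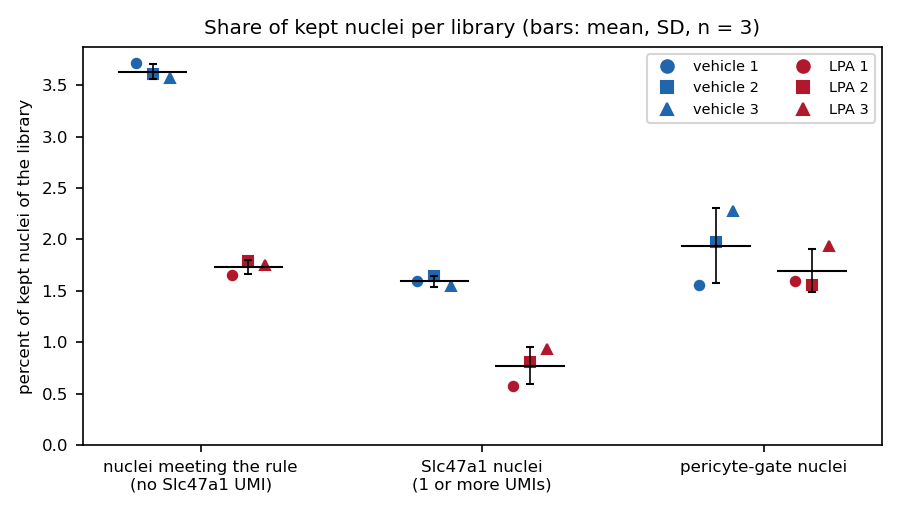
Percent of kept nuclei of each library (y axis) that met the rule, that met it but for 1 or more Slc47a1 UMIs, or that met the pericyte gate; points are libraries, black bars mean and SD (n = 3). LPA libraries lie below vehicle libraries in the first 2 populations (1.65 to 1.79% against 3.57 to 3.72% in the first) and overlap them in the third.

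For expression, UMIs were summed over the nuclei of each library and LPA was tested against vehicle with edgeR. The test covered 10673 genes and left out those that the rule names. Mitochondrial genes were left in, although the rule limits their UMIs. Calls needed a size of 0.25 or more on the log2 scale, in either direction, with the adjusted p below 0.05. In all, 76 genes (0.712%) were called, 38 higher (0.356%) and 38 lower (0.356%), and 1060 had an unadjusted p under 0.05. For 15% of the tested genes every LPA library lay on 1 side of every vehicle library. The number of calls depended on single libraries. It was 25 with LPA 1 left out, 28 with LPA 3 left out, 44 with vehicle 2 left out and 39 with vehicle 3 left out, and the 76 genes kept their direction in each case. Without the mixed clusters, 55 genes were called, 40 of them among the 76. Of the genes named in the next paragraphs, Frem1 (adjusted p = 0.210), Col4a1 (0.210), Col4a2 (0.0524), Pgm5 (0.170), Cped1 (0.120), St6galnac5 (0.107), Fmod (0.100), Mylk (0.102), Npr3 (0.0894), Adamts6 (0.132), Sulf1 (0.0745), Itih5 (0.0740) and Pex5l (0.471) were among those not called then, all with the same direction, and Gfap was too low to be tested.

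Enpp1 and Lhfpl2 had the lowest adjusted p of the genes that rose. Enpp1 (chr10:24637914-24712159, GRCm38, minus strand), which makes pyrophosphate, stood at 277, 271 and 259 CPM in LPA 1, 2 and 3 and at 142, 156 and 148 CPM in vehicle. All LPA libraries lay above all vehicle libraries, by 1.80-fold (log2 0.85 ± 0.11 SE, adjusted p = 0.000934). Enpp1 remained called in 20 of the 22 alternative settings that could test it. Lhfpl2, a membrane protein gene, stood at 294, 318 and 311 CPM against 186, 168 and 150 (log2 0.87 ± 0.11, adjusted p = 0.000934). Col15a1 (chr4:47208161-47313167, plus strand), a basement membrane collagen, reached 176, 116 and 142 CPM against 67.8, 69.4 and 57.5, a 2.20-fold rise (adjusted p = 0.00108). Its lowest LPA library, LPA 2, was still well above the highest vehicle library. Igfbp5 (chr1:72857932-72874884, minus strand), which binds insulin-like growth factors, rested on 358 UMIs and stood at 88.6, 77.7 and 124 CPM against 38.5, 41.2 and 32.8 (log2 1.35 ± 0.19, adjusted p = 0.00111). LPA 3 was the highest library for it, and the groups did not overlap. With no limit on Slc47a1 UMIs its change was log2 0.25 (adjusted p = 0.600), with other gate genes 0.59 (0.0974) and in cluster 1 alone 0.97 (0.448), so that it was not called in these 3 settings. Col13a1, a transmembrane collagen, rose by log2 0.88 ± 0.13, from 110 to 205 CPM (adjusted p = 0.00167). Chst11, which sulfates chondroitin, rose by log2 0.67 ± 0.10, from 172 to 275 CPM, and Lypd6b by log2 1.29 ± 0.21, from 35.8 to 85.4 CPM. Dpp4, a surface peptidase, stood at 188, 202 and 272 CPM against 101, 108 and 153, with the groups apart (adjusted p = 0.0139). Its level was 1495 CPM in cluster 4, which goes against the label, and 43.1 CPM in the other members, and it was not called with a stricter gate, after thinning, without LPA 3 or without vehicle 2. Pgm5, a protein of cell adhesions, and Tle1, a transcriptional corepressor, rose by log2 0.78 and 0.58. Pgm5 was called in 10 and Tle1 in 13 of 22 alternatives. Neither was called without LPA 1, without vehicle 2 or without vehicle 3, Pgm5 was not called without LPA 3, and Tle1 was not called without LPA 2 or without cluster 3 (adjusted p = 0.0768). St6galnac5, a sialyltransferase gene, rose by log2 0.87 but was more abundant outside the gate (232 CPM in LPA) than here (164 CPM), and without the mixed clusters its adjusted p was 0.107. Gfap, the astrocyte filament, stood at 69.6, 22.6 and 55.3 CPM against 12.6, 17.1 and 13, and outside the gate at 57.0 CPM in LPA and 20.0 in vehicle. It was called in 14 of 18 alternatives, and not with a stricter gate, with equal numbers of nuclei, without LPA 1 or without LPA 3. Its level here followed the level outside, and it was highest in cluster 6. The part of astrocyte RNA in this rise was not tested.

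Among the genes that fell was a pair that responds to glucocorticoids. Fkbp5 (chr17:28399094-28517527, minus strand), a chaperone that restrains the glucocorticoid receptor and that the hormone induces, stood at 174, 202 and 117 CPM in LPA 1, 2 and 3 and at 338, 315 and 384 CPM in vehicle. The groups did not overlap, and the gene fell by 1.08 ± 0.15 on the log2 scale (adjusted p = 0.00108). Zbtb16 (chr9:48654297-48836222, minus strand), a zinc finger repressor that glucocorticoids also induce, stood at 187, 133 and 129 CPM against 317, 252 and 371 (log2 -1.08 ± 0.15, adjusted p = 0.00138). The 2 genes fell in Slc47a1 nuclei as well (log2 -0.94, adjusted p = 0.00751, and -1.34, adjusted p = 0.00289). Their levels were also lower outside the gate, at 58.3 CPM in LPA and 101 CPM in vehicle for Fkbp5 and 82.3 and 122 CPM for Zbtb16, and both were called over all kept nuclei (log2 -0.91, adjusted p = 0.00226, and -0.64, adjusted p = 0.0273). Rcan2 (chr17:43801351-44039516, plus strand), an inhibitor of calcineurin, had the lowest adjusted p of the genes that fell. It stood at 82.3, 131 and 67.3 CPM against 275, 225 and 208 (log2 -1.32 ± 0.17, adjusted p = 0.000996). It was called in all 22 alternatives that could test it. Postn, periostin, a matrix protein of activated fibroblasts, fell from 65.1 ± 7.77 CPM to 27.8 ± 7.16 CPM (log2 -1.24 ± 0.21, adjusted p = 0.00793). Vcam1, an adhesion molecule of inflamed tissue, stood at 90.2, 119 and 102 CPM against 196, 177 and 155, with no overlap (adjusted p = 0.0107). It was called in 17 of 22 alternatives, and not after thinning, with equal numbers of nuclei, without LPA 1 or without LPA 3. Slc38a2, a transporter of neutral amino acids, fell from 477 to 312 CPM, Acss3, an acyl-CoA synthetase, from 251 to 167 CPM, and Mro from 71.7 to 33.4 CPM. Fbn2, a fibrillin, fell from 297 ± 31.1 to 193 ± 30.3 CPM (log2 -0.62 ± 0.12, adjusted p = 0.0217). It was called in 16 of 22 alternatives. The losses included a stricter gate, equal numbers of nuclei, LPA 1 left out and LPA 3 left out. Cyp26b1 stood at 7.91, 18.4 and 19.4 CPM against 41.9, 40.0 and 27.4. The groups were apart, but at 189 UMIs in all its adjusted p was 0.0668 (log2 -1.24 ± 0.30), and it is not counted among the genes that fell.

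The remaining calls were chosen for mention after their values were seen. Tnxb, tenascin-X, stood at 127, 96.1 and 85.2 CPM against 51.1, 59.4 and 57.5. Sulf1, which trims heparan sulfate, rose from 193 to 303 CPM, Itih5, a hyaluronan-binding protein gene, from 411 to 613 CPM, and Adamts6, a matrix protease, from 77.1 to 131 CPM. Sphk1, which makes sphingosine-1-phosphate, stood at 28.5, 53.7 and 17.9 CPM against 63.7, 74.7 and 80.7, with LPA 2 nearest to the vehicle libraries (adjusted p = 0.0386). Npr3, a natriuretic peptide receptor, fell from 53.1 to 24.1 CPM, Hs3st3a1, a heparan sulfotransferase, from 63.7 to 33.4 CPM, and Moxd1 from 25.5 to 7.07 CPM. Svil, Aspg, Tmem132c, Zfp362, Eif2ak3, Stard13, Samd5, Pid1, Mill2, Strip2, Pik3r3, Myo1f, Sipa1l2, Sctr, Gm16201 and A730056A06Rik also rose, by log2 0.44 (Pid1) to 1.91 (Sctr, on 53 UMIs in all), and Mapk4, Vsnl1, Baiap2, Gramd1b, Inpp4b, Schip1, Gm26682 and Gm28376 also fell, by 0.53 (Schip1) to 1.15 (Vsnl1) on the log2 scale.

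**Figure D3:**
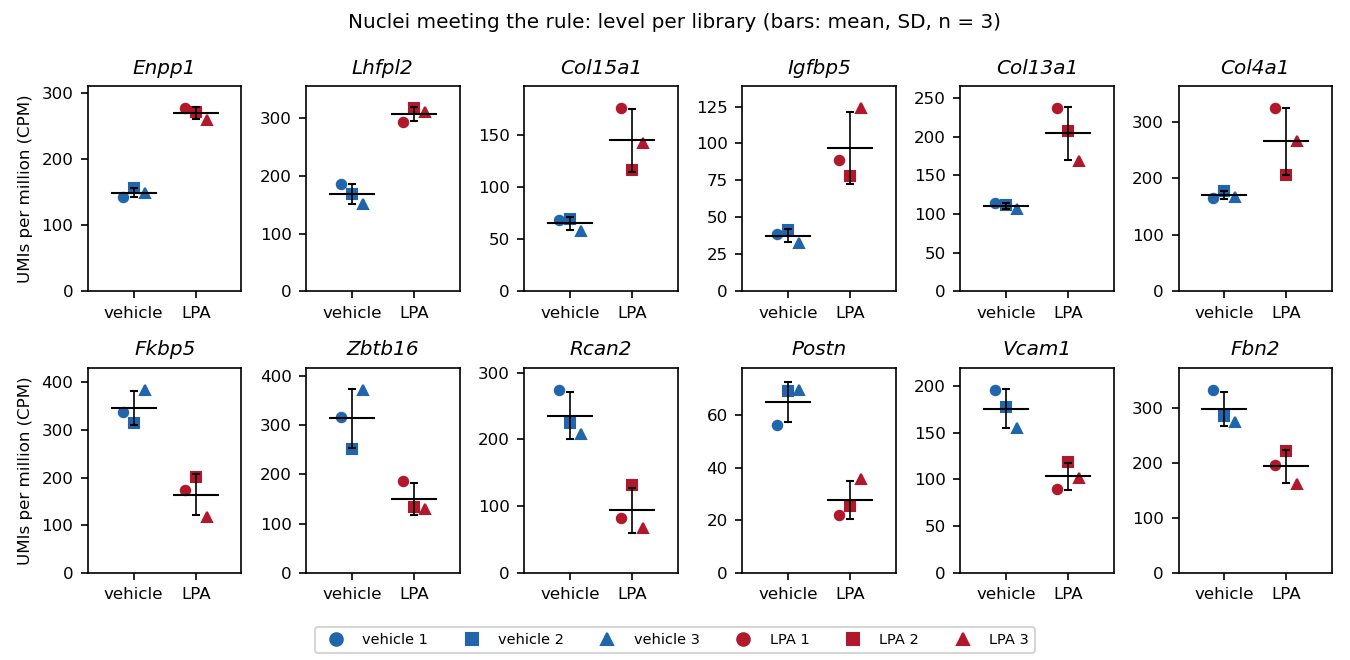
CPM (y axes from 0) in nuclei meeting the rule for 6 genes called higher (top) and 6 called lower (bottom) after LPA; each point is a library and black bars are mean and SD (n = 3). The 12 genes were picked from those called, and the groups do not overlap in any panel, nor in 15% of all tested genes. The 3 LPA libraries of Enpp1 lie between 259 and 277 CPM.

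By gene group, the basement membrane list held the most calls. Of its 25 genes, 18 were tested, 4 rose, none fell and the median log2 change was 0.26, beside 0.0051 over all 10673 genes, of which 0.356% rose. The risers were Col15a1, Frem1 (31.4 to 61.3 CPM), a protein that anchors epithelia to the basement membrane, and the type IV collagen chains Col4a1 and Col4a2, which lie head to head on chr8 and form 1 network molecule. Col4a1 stood at 324, 205 and 266 CPM against 164, 178 and 167 (adjusted p = 0.0349), and Col4a2 at 271, 189 and 211 against 144, 143 and 158 (adjusted p = 0.0405). LPA 1 was the highest library in both. Col4a1 was called in 6 and Col4a2 in 5 of 22 alternatives, and Frem1 in 9 of 21, and without the mixed clusters Col15a1 was the 1 of the 4 still called. Of 29 tested genes of fibrillar collagens and interstitial matrix (33 listed), none rose and 2 fell, Postn and Fmod, fibromodulin (68.8 to 36.8 CPM), while the list's median was 0.25. Fmod was called in 10 of 21 alternatives, its losses including DESeq2 and LPA 1, LPA 3, vehicle 1, vehicle 2 or cluster 3 left out. Postn was called in 18 of 21, and not with a stricter gate, after thinning or without LPA 1. Col1a1, the main chain of type I collagen, averaged 334 ± 34.9 CPM in LPA and 254 ± 55.1 in vehicle (adjusted p = 0.216), and the groups overlapped.

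Of 15 tested glucocorticoid-response genes (21 listed), Fkbp5 and Zbtb16 fell, none rose, and the median was -0.32, with 13 of 15 values below 0, beside 0.712% of genes called and 5268 of 10673 values below 0 over all genes tested. Of 10 tested genes of fibroblast activation and inflammation (29 listed), none rose and Postn and Vcam1 fell, with a median of 0.096. Of 16 TGF-beta genes tested (median 0.12), Fbn2 fell. Of 15 Wnt genes tested (median 0.044), Wnt6, a Wnt ligand also listed among 6 tested arachnoid fibroblast markers (median -0.14), fell from 22.7 to 7.43 CPM on 113 UMIs in all. Of 13 insulin-like growth factor genes (median -0.055) Igfbp5 rose, and of 18 PDGF, FGF and VEGF genes (median -0.023) Pdgfrl rose, from 58.8 to 100.1 CPM. Of 27 transporters (median 0.041) Slc38a2 fell. Of 9 fibroblast markers (median 0.35) Cped1 rose, from 1098 to 1472 CPM, and of 6 arachnoid barrier and border markers (median 0.067) Dpp4 rose.

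No gene was called among 19 bone morphogenetic protein genes, 25 meningeal transcription factors, 13 Yap and Tead genes, 15 clock genes, 8 interferon-stimulated genes, 4 cell division genes, or 5 pial and 6 dural markers tested. With 0.712% of all tested genes called, lists of this size would hold few calls or none in any case. The medians of these lists were, in the same order, 0.16, -0.019, 0.081, 0.15, 0.16, -0.10, 0.21 and -0.062. Bmp7 averaged 233 ± 36.3 CPM in LPA and 190 ± 21.5 in vehicle, Bmpr1a 207 and 220, Foxp1 1369 and 1241, Eya1 512 and 549, Tead1 395 and 369, Wwtr1 239 and 206, and Rora 5628 and 4989. Rnf213 averaged 77.7 and 61.4 CPM, Stat2 71.6 and 62.5, Hlf 403 and 389, Pola1 52 and 44.1, Diaph3 27 and 32.4, Lamc3 307 and 265, Cxcl12 114 and 103, Foxp2 371 and 347, and Mgp 35.2 and 44.5. Nor was any called among 7 tested genes of LPA reception and metabolism (13 listed, median 0.035). Lpar1, an LPA receptor, stood at 497, 472 and 414 CPM in LPA against 431, 407 and 483 in vehicle, with the groups overlapping (log2 0.06 ± 0.11, adjusted p = 0.911). It averaged 99.1 CPM in Slc47a1 nuclei and 112 CPM outside the gate. Enpp2, autotaxin, which makes LPA, averaged 546 ± 118 and 516 ± 44.2 CPM, near its level of 584 CPM outside the gate.

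Most of the genes that rose had their highest level in cluster 3. Of the 38, 26 (68.4%) had their highest level there among the 10 clusters, where 11.7% of all tested genes did. Of the 38 genes that fell, 1 (2.63%) did. Cluster levels were pooled over LPA and vehicle nuclei, and cluster 3 made up a mean of 14.3% of the members in LPA against 7.44% in vehicle. The part of this mix in the count of 26 was not tested. Cluster 3 made up 21.3%, 13.6% and 8.18% of the nuclei in LPA 1, 2 and 3 and 4.98%, 9.38% and 7.95% in vehicle 1, 2 and 3. Its share was highest in LPA 1 and LPA 2, and LPA 3 lay within the vehicle range. Taken over all kept nuclei, cluster 3 made up 0.246% ± 0.105 in LPA and 0.269% ± 0.0777 in vehicle (SD, n = 3 each), with the groups overlapping. Cluster 5, led by Slc22a2 and Npr3, was the 1 cluster of the 10 whose share of the members did not overlap between the groups, at 12.1%, 13.6% and 13.8% in LPA 1, 2 and 3 and 18.3%, 14.7% and 15.7% in vehicle 1, 2 and 3, which was not tested. No comparison of cluster sizes was planned. Such a separation of 3 libraries from 3 has an exact p of 0.1, so 1 in 10 clusters carries no weight. Npr3, which fell but was called in 6 of 20 alternatives, and Cyp26b1, which was not called, had their highest levels in cluster 5. Without cluster 3, 35 genes were called, all among the 76, 16 higher and 19 lower. Enpp1 (log2 0.84), Lhfpl2 (0.91), Col15a1 (1.28), Igfbp5 (1.40) and Col13a1 (0.85) were among the 16. Col4a1 (log2 0.48, adjusted p = 0.166), Col4a2 (0.36, adjusted p = 0.424), Frem1 (0.80, adjusted p = 0.148) and Cped1 (0.33, adjusted p = 0.205) were not, so that 1 of the 4 basement membrane calls was left. In cluster 1 alone, the largest, 29 genes were called, and the log2 change was 0.79 for Enpp1, 0.89 for Col15a1, -1.38 for Fkbp5 and -1.75 for Rcan2, but 0.11 for Col4a1 and 0.21 for Col4a2. Of these, Col15a1 and the type IV collagens were not called there.

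**Figure D4:**
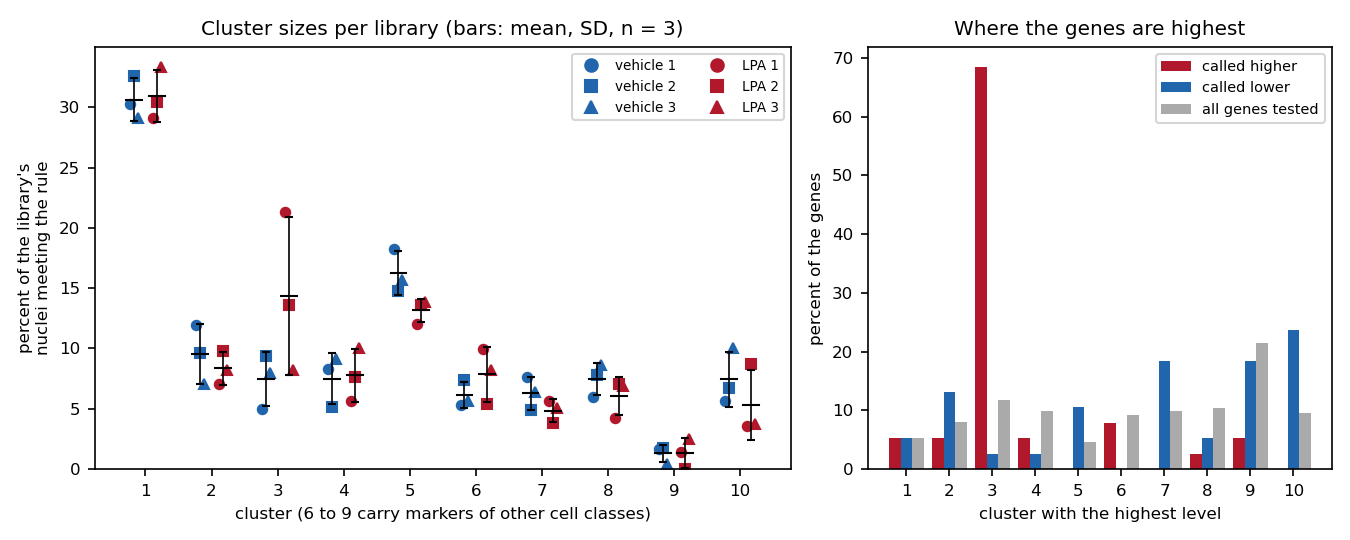
Left, percent of each library's nuclei meeting the rule that fell in each of 10 clusters (points are libraries, black bars mean and SD, n = 3); right, percent of the genes called higher, called lower or tested whose highest level was in each cluster. Cluster 3 holds 68.4% of the genes called higher against 11.7% of all tested, and its share was 21.3% in LPA 1 but 8.18% in LPA 3.

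Some of the genes that fell were more abundant outside these nuclei than in them. This held for 18 of the 38 genes called lower (47.4%), for 7 of the 38 called higher (18.4%) and for 39.0% of all tested genes. Of 8 mitochondrial genes tested, 6 fell and none rose. These 6 are counted among the 38 and among the 18, but the rule itself limits mitochondrial UMIs. Their calls are therefore given as values and not as support for a change. mt-Cytb stood at 11.1, 17 and 26.9 CPM against 72.9, 55.3 and 82.1 (log2 -1.92 ± 0.26, adjusted p = 0.00108), and outside the gate at 30.4 in LPA and 77.9 CPM in vehicle. mt-Co3, mt-Co2, mt-Nd2, mt-Atp6 and mt-Co1 fell too, by 1.02 (mt-Co1) to 1.48 (mt-Atp6) on the log2 scale. These transcripts moved in the same direction outside the gate, and with no mitochondrial limit on nuclei mt-Cytb stood at log2 0.075 (adjusted p = 0.962), so its direction turned. Of the 38 genes called lower, 7 (18.4%) were highest in cluster 7, the mixed cluster with oligodendrocyte genes, against 9.84% of all tested genes. Nkain2, Tmeff2, Slc24a2, Prr5l and Erbb4 were among the 7. Of these named genes Tmeff2 alone was still called without the mixed clusters (adjusted p = 0.0374). The 10 oligodendrocyte markers summed to 3296 ± 235 CPM in LPA and 4042 ± 426 in vehicle, against 6867 CPM outside the gate, with Mbp the most abundant and none at 0. All 10 were tested and none was called, Mbp included (adjusted p = 0.119). Pex5l, at 105 CPM in LPA and 171 in vehicle here, stood at 298 and 358 CPM outside the gate. The part of free or neighbouring RNA in these falls was not tested.

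Other lists of foreign cell types held 2 calls, where 0.712% of all 10673 tested genes were called. Summed CPM in LPA and vehicle was 602 and 693 for neurons (Syt1 most abundant), 2473 and 2447 for astrocytes (Slc1a2), 169 and 133 for immune cells (Cx3cr1), 81.8 and 79.1 for ependyma (Cfap299), 215 and 255 for endothelium (Cdh5), 627 and 611 for pericytes (Vtn), 29.2 and 56.6 for blood (Hbb-bs) and 233 and 274 for smooth muscle (Sorbs2), with Cnn1 and Map3k7cl of the last list at 0. The calls were Gfap, 1 of 10 astrocyte genes tested, and Mylk, 1 of 4 smooth muscle genes tested (33.4 to 14.4 CPM). None was called of 9 neuron, 7 immune, 4 ependymal, 7 choroid plexus, 2 endothelial, 4 pericyte and 1 blood genes tested. Choroid plexus markers summed to 12090 and 13123 CPM, nearly all of it Trpm3, a channel whose level was highest in cluster 10 (36378 CPM) and cluster 5 (28906 CPM). The LPA and vehicle libraries did not overlap in the oligodendrocyte, endothelial, smooth muscle and blood sums, nor in 15% of all tested genes. The endothelial sum includes the rule gene Flt1 (16.9 CPM in LPA and 36.1 in vehicle), and the pericyte sum 2 rule genes. Medians of the tested genes of each list were -0.15 for neurons, -0.069 for astrocytes, -0.35 for oligodendrocytes, 0.39 for immune cells and 0.078 for ependyma. They were 0.078 for choroid plexus, -0.29 for endothelium, 0.036 for pericytes, -0.58 for smooth muscle and -1.20 for the 1 tested blood gene.

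The LPA effect differed from that in Slc47a1 nuclei at a few genes. Fitted alone they gave 13 calls of 8533 genes (0.152%) and pericyte-gate nuclei 28 of 8820 (0.317%). In the test of the difference between the LPA effect here and in Slc47a1 nuclei, 7 of 10462 genes (0.0669%) were called. Pde7b, a cyclic AMP phosphodiesterase, stood in Slc47a1 nuclei at 396, 521 and 460 CPM in LPA against 956, 943 and 987 in vehicle, and here at 532, 594 and 513 against 410, 417 and 454. All LPA libraries lay below all vehicle libraries in the first population and above them in the second, where the adjusted p was 0.154, with a difference of 1.39 ± 0.15 on the log2 scale (adjusted p = 4.45e-05). Igfbp5 stood in Slc47a1 nuclei at 248, 310 and 268 CPM against 251, 399 and 292, so that the groups overlapped there, and the difference was 1.53 ± 0.23 (adjusted p = 0.00735). The other differences were 0.92 for Ror1, a Wnt receptor, 1.10 for St6galnac5, 1.98 for Slc6a20a, a proline transporter, -1.21 for Plxna4, a semaphorin receptor, and -0.83 for Alcam, an adhesion molecule. Alcam fell here, from 2617 ± 171 to 1677 ± 359 CPM, and stood at log2 0.16 in Slc47a1 nuclei. Slc6a20a stood in Slc47a1 nuclei at 6.89, 51.7 and 8.52 CPM against 82.1, 108 and 129. Outside the gate it averaged more, 73.0 CPM in LPA and 137 in vehicle. The rule genes Slc6a13 (3.44, 14.8 and 2.13 against 45.4, 23.5 and 43.0 CPM) and Lama1 moved the same way in Slc47a1 nuclei. The part of these genes and of RNA from outside the gate was not tested. Fkbp5, Zbtb16 and Lhfpl2 were called in both populations, with differences of -0.16, 0.25 and 0.097 (adjusted p of 0.946, 0.904 and 0.972). Without LPA 3 or vehicle 2, Pde7b was the 1 gene called, without vehicle 3 it was called with Adamtsl3, which is not among the 7, without LPA 2 there were 19 calls, and with members outside the mixed clusters Pde7b and Igfbp5 were called.

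**Figure D5:**
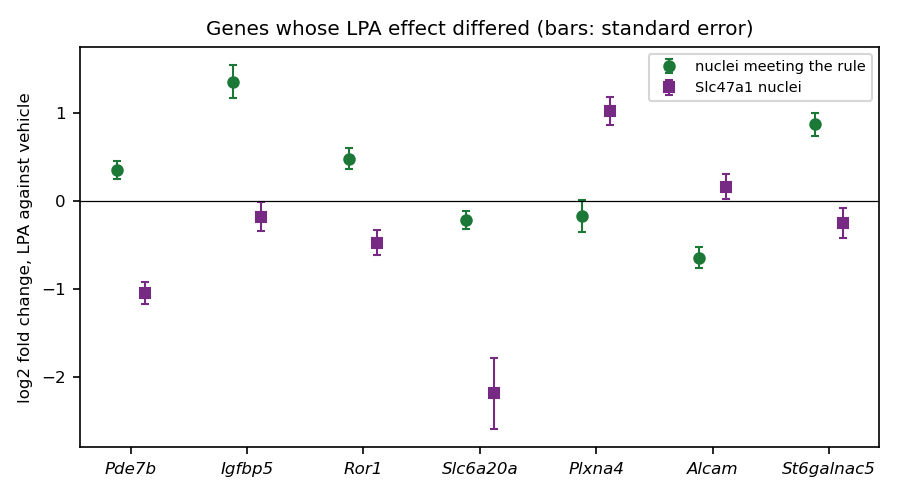
Log2 fold change of LPA against vehicle (y axis, bars standard error) for the 7 genes whose LPA effect differed between nuclei meeting the rule and Slc47a1 nuclei. Pde7b lies above 0 in nuclei meeting the rule (0.35) and at -1.05 in Slc47a1 nuclei.

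Against pericyte-gate nuclei no gene of 10473 (0%) differed in its LPA effect by edgeR, while 697 had an unadjusted p under 0.05, and DESeq2 called 0 as well. The lowest adjusted p values there were those of Mylk (0.111), Nav1 (0.266), Sdk1 (0.270) and Leng1 (0.270). Nav1, a guidance gene, averaged 299 CPM here in LPA and 227 in vehicle (adjusted p = 0.122), and Slc6a20a 1449 ± 197 and 1679 ± 55.1 CPM (adjusted p = 0.493).

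The upstream stretches of 3 genes are shown, as the results turn on them: Enpp1, the riser of lowest adjusted p with Lhfpl2, Igfbp5, which rose here and whose LPA effect differed from that in Slc47a1 nuclei, and Fkbp5, which fell in both populations. Each is the 250 bases before the RefSeq start (GRCm38.p6), read 5′ to 3′ on the gene's strand, at chr10:24712160-24712409, chr1:72874866-72875115 and chr17:28486150-28486399, all on the minus strand. For Igfbp5, 19 of these bases lie in a GENCODE exon, and for Fkbp5 they lie within the GENCODE gene. Capitals mark a match, on either strand, to AGAACA (a glucocorticoid receptor motif), AGGTCA (a nuclear receptor motif) or GGAATG (the TEAD motif), and the sole match, CATTCC in Igfbp5, is GGAATG on the other strand.
Enpp1: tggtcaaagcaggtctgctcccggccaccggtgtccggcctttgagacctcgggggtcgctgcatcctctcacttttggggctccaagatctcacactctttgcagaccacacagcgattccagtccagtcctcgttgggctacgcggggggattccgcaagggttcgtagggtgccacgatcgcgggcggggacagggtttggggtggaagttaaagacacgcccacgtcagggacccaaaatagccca
Igfbp5: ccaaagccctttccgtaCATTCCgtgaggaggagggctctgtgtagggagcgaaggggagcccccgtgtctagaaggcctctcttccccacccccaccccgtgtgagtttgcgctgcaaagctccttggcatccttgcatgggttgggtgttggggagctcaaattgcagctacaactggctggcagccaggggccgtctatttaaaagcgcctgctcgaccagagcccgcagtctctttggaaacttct
Fkbp5: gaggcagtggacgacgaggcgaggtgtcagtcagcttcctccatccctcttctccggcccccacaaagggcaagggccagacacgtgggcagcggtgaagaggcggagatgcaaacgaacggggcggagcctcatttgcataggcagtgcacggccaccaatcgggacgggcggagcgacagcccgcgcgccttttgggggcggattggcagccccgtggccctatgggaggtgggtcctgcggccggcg
Promoters were found in the table for 29 of the 38 genes called higher, 21 of the 38 called lower and 8341 tested genes. AGAACA occurred in 4 of the 29 and 4 of the 21, beside 10.0% of tested and 16.2% of all 27025 promoters. AGGTCA occurred in 7 of the 29 and 1 of the 21, beside 9.85% and 13.8%, and GGAATG in 3 of the 29 and 2 of the 21, beside 10.5% and 12.6%. A match is a string of letters and not a bound site.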

How the data were processed

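The authors made the count matrices with Cell Ranger 4.0.0 against a pre-mRNA mm10 reference, so that intronic reads were counted. The deposited values are raw UMI counts per gene (32285 genes) and barcode, with no normalization, from 10x 3′ libraries of about 10000 targeted nuclei. Library totals were 48852970 to 65688644 UMIs. The members and gene lists were chosen with earlier results of these data known, and a fall in meningeal nuclei was among these results. The limits on genes and mitochondrial UMIs follow the study; no doublet caller was run. UMIs of the nuclei were summed per library and tested with edgeR 4.0.16 (filterByExpr, TMM, glmQLFit and glmQLFTest, R 4.3.3). Benjamini-Hochberg adjustment was over all tested genes but those that the rule names, with mitochondrial genes included. The study tested nuclei; here the replicate is the library, and p-values measure the spread between libraries labelled as separate replicates. Differences between populations were tested as an interaction with a library block. CPM are UMIs per 1000000 UMIs of a population. Clusters came from scanpy 1.11.5 (1500 variable genes, 15 components, 20 neighbors, Leiden resolution 0.5). A cluster was called mixed if markers of another class exceeded 1000 CPM and 5 times their level in the median cluster. Its median UMIs also had to exceed the median of all members. These limits were set after seeing the clusters. Thinned values use 2000 UMIs per nucleus. On simulated counts for the comparison in members (10682 genes, 200 changed), 67.5% of genes changed by a log2 of 1 and 7% of those changed by 0.5 were recovered. Of the calls, 8 of 143 were false at 1 and 4 of 18 at 0.5. Genes named are the rule genes, the 12 of lowest adjusted p called in each direction, up to 6 called genes of each list or else its 2 most abundant, 6 genes of earlier text and the 4 of lowest adjusted p per interaction. Other called genes that are named, all statements on cluster 3 and those on the group shares of cluster 5 were chosen after their values were seen. Gene positions are of GENCODE M21 (GRCm38), where 32158 of 32285 features matched by identifier. Strand-specific counting and reads shared with overlapping genes were not checked. Alternatives were DESeq2 1.42.0, other filters, gates and depths, a replicate block, an Xist covariate and leaving out each library. Results that rest on some genes, and the list of retinoic acid genes, are not reported here.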

Additional observations from a re-analysis of the deposited data

Results flagged for a closer look

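In 7 genes the LPA effect differed between meningeal nuclei without Slc47a1 and Slc47a1 nuclei by the edgeR interaction test (log2 fold change in the former minus that in the latter, 3 LPA and 3 vehicle libraries). The difference was 1.39 for Pde7b, 1.53 for Igfbp5, 0.92 for Ror1, 1.98 for Slc6a20a, -1.21 for Plxna4, -0.83 for Alcam and 1.10 for St6galnac5, with adjusted p of 4.45e-05 to 0.0492. All 7 kept the sign of the difference in each alternative run, and Pde7b was called in each of them. St6galnac5 and Plxna4 were more abundant in nuclei outside the gate (232 and 256 CPM in LPA) than here (164 and 117 CPM). Slc6a20a was less abundant in Slc47a1 nuclei (22.4 CPM in LPA and 106 in vehicle) than outside the gate (73.0 and 137 CPM), where it was also lower in LPA. The part of RNA from outside the gate was not tested for these 3 genes.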

How the results depend on the processing

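The lower share of these nuclei after LPA kept its direction in every alternative run, with ratios of LPA to vehicle of 0.241 to 0.518. The share without Slc47a1 within the meningeal gate did not: the difference of -0.0883 percentage points became 1.07 after thinning and ran from -2.48 to 2.04 as single libraries were left out. Against 76 called genes, 44 were called with a stricter gate, 46 with a looser one, 158 with other gate genes, 26 after thinning, 26 with equal numbers of nuclei, 42 by DESeq2 and 203 with no filter on low counts. Leaving out single libraries gave 25 to 70 calls. The planned removal of mixed nuclei left 38 nuclei and 79 genes tested, with 1 call. Chosen after seeing the data were shorter lists for that removal (240 nuclei left, 2 calls of 2037 genes tested), cluster 1 alone (29 calls) and leaving out cluster 3 (35 calls) or the mixed clusters. The 7 genes whose LPA effect differed from Slc47a1 nuclei became 1 by DESeq2, 43 with no filter, 3 with no mitochondrial limit, 13 with Slc47a1 nuclei of 3 or more UMIs, 2 without the mixed clusters and 1 to 19 as libraries were left out. Against pericyte-gate nuclei 0 became 19, 7 and 3 with no filter, no mitochondrial limit and no mixed clusters, and 0 to 1 as libraries were left out. Directions turned for mt-Cytb (0.075) and mt-Atp6 (0.075) with no mitochondrial limit, Svil (-1.37) and Pid1 (-0.34) without mixed nuclei, Slc24a2 (0.072) with the shorter lists and Prr5l (0.23) after thinning. The causes were not tested. Xist was high in LPA 2, LPA 3 and vehicle 2 (11.2, 11.1 and 11.3 as log2 of CPM plus 1) and under 1 on that scale in the other libraries. With Xist as a covariate 72 genes were called, 60 of them among the 76. With the replicate number as a block 70 genes were called, 63 of them among the 76. Deviations of same-numbered libraries correlated at 0.129, 0.121 and -0.119, so that the numbers were not taken to pair them. On simulated counts with this number of libraries, depth and spread, 7% of changes of 0.5 on the log2 scale were recovered, and 4 of the 18 calls were false.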
